A study of Arabidopsis thaliana with 9 samples.

Results

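Periderm-marker nuclei of the 4-week Arabidopsis thaliana hypocotyl are described here. They were taken from 1 droplet library (10x Genomics, all hypocotyl) as the nuclei with 3 or more counts summed over 9 genes, coming from 2 or more of these genes, among nuclei with more than 1200 and fewer than 10000 counts. 168 of 2081 nuclei in this library met the rule (8.07%, 95% Clopper-Pearson interval 6.94 to 9.33%, which covers counting error only), out of 5175 passing nuclei in the whole series. The 9 genes are AT2G48130, AT1G11170, AT2G18150, AT4G14060, AT3G45070, CYP86A1 (AT5G58860), CYP86B1 (AT5G23190), GPAT5 (AT3G11430) and RWP1 (AT5G41040). Because measured counts chose these nuclei, their values in that library are given as a description without a test. The same rule was then applied to the other 8 libraries, and genes outside the rule were compared there.

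The study profiled single nuclei of the radially growing hypocotyl to relate strigolactone signalling to vessel formation. The 10x all hypocotyl library and 6 VASA-seq plates (a total RNA method with 1 nucleus per well) came from Col-0 plants of the PXY:H4-GFP;;SMXL5:H2B-RFP line, in which the PXY and SMXL5 promoters mark nuclei on the xylem and phloem sides of the cambium. These plants were 4 weeks old. On 3 plates nuclei were sorted from the cambium region by reporter signal (VASA cambium), and on 3 without that gate (VASA all hypocotyl). The last pair of libraries were 10x libraries of 19-day-old plants, the strigolactone receptor mutant d14-1 and Col-0 wild type (WT), for which the labels give no reporter line. All plants grew on agar with sucrose in short days (10 h light, 14 h dark), and each library or gate came from pooled hypocotyls. The 3 plates of a gate share 1 pool, so p-values over plates measure the spread between plates and not between plants, and gate and pool cannot be told apart.

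The periderm is the outer barrier that replaces the epidermis in thickened organs. Its meristem, the phellogen, forms phellem (cork) outwards and phelloderm inwards. Phellem walls are impregnated with suberin, a polyester of very-long-chain fatty acids, omega-hydroxy acids, fatty alcohols and glycerol that is joined to ferulic acid and lignin-like phenolics. Fatty acids are elongated by KCS enzymes, hydroxylated at their ends by CYP86A1 and CYP86B1, loaded onto glycerol by GPAT5, feruloylated by RWP1, carried out of the cell by ABCG transporters and lipid-transfer proteins, and assembled in the wall by GDSL-type lipases. Peroxidases and laccases couple the phenolic part.

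The library held 21650313 counts, 21.3% of them in passing nuclei. Plates held 1710013 to 2445623 counts, d14 18175630 and WT 18452168. Rule-selected nuclei were about as deep as the rest in the 10x library (median 1923 counts, against 1844 in the other nuclei) and deeper on the all hypocotyl plates (medians 6268, 6031.5 and 7688 counts, against 5273.5, 5594 and 5850). The part of depth in the plate results was not tested beyond thinning, given below. 1 cell barcode of a passing nucleus was shared between the 10x all hypocotyl and WT libraries. Barcodes of d14 were not compared.

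Members carried a median of 10 counts of the rule genes and at most 68. 10 members had exactly 3 counts, the minimum. Just outside were 48 nuclei with 2 counts and 29 with 3 or more counts from a single gene, 13 of these from AT2G18150. A further 187 nuclei had 1 count and 1649 had none. By number of rule genes seen, 64 members had 2, 51 had 3, 38 had 4 and 15 had 5 or more. Summed over the 9 genes, members had 5711 CPM (counts of the gene relative to all counts of the same nuclei, scaled to 1000000), other nuclei 102 CPM, and barcodes with fewer than 100 counts, which report free RNA, 725 CPM. Among 114 nuclei outside the rule with companion cell markers, a phloem cell type that should lack these transcripts, 11 (9.65%) had at least 1 count of a rule gene, at a median depth of 1692.5 counts.

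The rule genes seen in most members were not those of suberin synthesis. AT2G18150, a class III peroxidase, had 594 counts in 129 members (1629 CPM, against 44.5 CPM in other nuclei), and was seen in 7.02% of the companion cell nuclei. AT4G14060, a polyketide cyclase and lipid transport family protein, had 439 counts in 107 members (1204 CPM against 22.4 CPM), AT3G45070, a sulfotransferase, 427 counts in 98 members (1171 CPM against 16.3 CPM), and AT1G11170, a protein of the DUF707 family, 212 counts in 94 members (582 CPM against 7.31 CPM). AT2G48130, a lipid-transfer protein, had 183 counts in 33 members (502 CPM against 3.77 CPM). The suberin enzymes were seen in few members. RWP1 had 100 counts in 19 members (274 CPM against 1.89 CPM), GPAT5 42 counts in 11 members (115 CPM against 0.471 CPM), CYP86A1 59 counts in 9 members (162 CPM against 3.77 CPM) and CYP86B1 26 counts in 10 members (71.3 CPM against 1.41 CPM). A count of 0 in a nucleus of this depth does not show that the gene was silent there.

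In an unsupervised clustering of the library the members were mostly together. 141 of the 168 (83.9%) fell in a cluster of 186 nuclei, of which they made up 75.8%, and 11 in a cluster of 30 nuclei. The rest were spread over 8 further clusters. The rule genes were among the genes clustered, so this is a description.

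The label was checked against markers of other cell types. In the 10x library the summed level of xylem parenchyma markers in members was 0.0970 times that in other nuclei (counting interval 0.0653 to 0.139), of phloem parenchyma markers 0.147 times (0.111 to 0.192), of companion cell markers 0.285 times (0.220 to 0.362), of photosynthesis genes 0.540 times (0.485 to 0.598), of cambium markers 0.601 times (0.545 to 0.662) and of epidermis markers 0.729 times (0.582 to 0.904). Markers of vessels were at 1.23 times (1.04 to 1.45) and of dividing cells at 1.90 times (1.39 to 2.55). Endodermis markers stood out at 6.88 times (5.46 to 8.64), with 337 CPM in members against 49.0 CPM in other nuclei. 4 of the 12 endodermis genes had no count in members, among them the Casparian strip gene CASP1, and the excess lay in MYB36 (43 counts in members, 2 in other nuclei), AT1G61590 (47 and 37) and GSO1 (25 and 10). MYB36 directs formation of the Casparian strip in the root endodermis, and AT1G61590 (SCHENGEN1) and GSO1 (SCHENGEN3) are kinases of the pathway that monitors the strip. The paper characterises the periderm by WOX4, GPAT5 and MYB84. WOX4, also a cambium regulator, had 554 CPM in members against 322 CPM in other nuclei, but did not pass the test on the plates, given below. GPAT5 is a rule gene, and MYB84 is given below. The label of periderm thus rests on the rule genes and on suberin and periderm genes outside the rule, which follow. The rule genes CYP86A1, CYP86B1, GPAT5 and RWP1 are suberin enzymes themselves. Suberin genes outside the rule such as KCS2 and LACS2 were high mainly in the 22 of 168 members with a count of these 4, given below. For the other members the label does not rest on such genes. The part that endodermal nuclei may take in the results was not tested.

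Beyond the rule genes, the 25 genes of largest ratio between members and other nuclei (on CPM + 10, with 30 or more counts and seen in at least 10% of members) included several enzymes of wall and lipid metabolism. By construction they were high in the 10x library, where 282 of 16686 genes (1.69%) were at least 4-fold higher, so their values were read in the other libraries. They include 3 class III peroxidases (AT2G38380, RCI3 and PA2), the laccase LAC3, the NADPH oxidase RHD2 (RBOHC, known for root hair growth), the elongase KCS2, the fatty acyl reductase FAR5, the acyl-lipid thioesterase AT1G35250, the GDSL-type lipase AT2G23540, the lipid-transfer proteins EDA4 and AT3G22620, and the cell wall enzymes QRT2 (a polygalacturonase), XTR6 (a xyloglucan endotransglycosylase) and PGSIP3 (a xylan glucuronosyltransferase, also called GUX2). PHI-1 (AT1G35140) and ARF20 (AT1G35240) are also among the 25. Several lie next to other genes of the set or to genes also at least 4-fold higher, such as AT2G48130 with EDA4, FAR5 with FAR4, AT2G38380 with AT2G38390, AT1G35250 with 3 neighbours and AT5G38020 with 4, and reads of such close copies can be shared between them.

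On the VASA all hypocotyl plates, 15 of 293, 16 of 232 and 10 of 181 nuclei met the rule. Of 15727 genes tested outside the rule (edgeR quasi-likelihood test on counts summed per plate, plate as a block), 476 (3.03%) were higher and 387 (2.46%) lower in rule-selected than in other nuclei at a false discovery rate (FDR) under 0.05, and the median log2 change of all tested genes was -0.23. Without replicate 1 the counts were 304 higher and 129 lower, without replicate 2 334 and 166, and with every nucleus thinned to 1200 counts 70 and 62 of 6305 genes. Of the 476 genes, 456 had counts in rule-selected nuclei on all 3 plates, and 44 had most of their counts there in 1 nucleus. 20 of the 25 genes taken from the 10x library could be tested, and all 20 rose, with a median log2 change of 4.50. The other 5 (AT3G06778, AT4G36610, AT4G24130, GASA6 and AT1G35242) had too few counts on the plates. Summed over the 25 genes, rule-selected nuclei had 9404, 7431 and 8751 CPM on the 3 plates, against 336, 433 and 332 CPM in other nuclei. The 25 genes were also higher in d14 (12429 CPM against 636 CPM) and in WT (15413 CPM against 616 CPM), each of them with a higher level in rule-selected nuclei. At least 4-fold differences were seen for 20 of 20 genes with enough counts in d14 (1.56% of 12455 genes in all) and for 22 of 22 in WT (2.33% of 11340).

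LAC3 had the smallest FDR of these 20 genes on the plates. It had 1199, 759 and 1429 CPM in rule-selected nuclei, against 13.4, 7.61 and 24.3 CPM in other nuclei (log2 change 6.25 ± 0.32, SE, edgeR FDR 2.99e-82). The peroxidase AT2G38380 had 906, 1088 and 1768 CPM, against 41.4, 47.2 and 58.0 CPM (log2 change 4.61 ± 0.28, edgeR FDR 3.63e-57). For both genes the lowest plate of the rule-selected nuclei was far above the highest of the others. AT1G14240, an apyrase-like phosphatase of the CD39 family, had 1666, 1188 and 1642 CPM in rule-selected nuclei, against 108, 91.3 and 45.8 CPM in other nuclei (log2 change 4.21 ± 0.27, edgeR FDR 7.63e-52). RHD2 had 653, 347 and 338 CPM against 23.1, 39.5 and 16.8 CPM (log2 change 4.06 ± 0.33, edgeR FDR 9.38e-32), and XTR6 633, 338 and 552 CPM against 25, 25.1 and 15 CPM (log2 change 4.49 ± 0.33, edgeR FDR 9.36e-40). AT2G23540 had 156, 375 and 288 CPM, against 2.44, 5.32 and 0 CPM (log2 change 6.55 ± 0.47, edgeR FDR 6.99e-40). FAR5 rested on a single plate. It had 19.5, 292.5 and 25.1 CPM, against 8.52, 9.89 and 23.4 CPM (log2 change 2.75 ± 0.56, edgeR FDR 5.94e-05), and without replicate 2 its change was 0.58 (edgeR FDR 0.96).

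**Figure D1:**
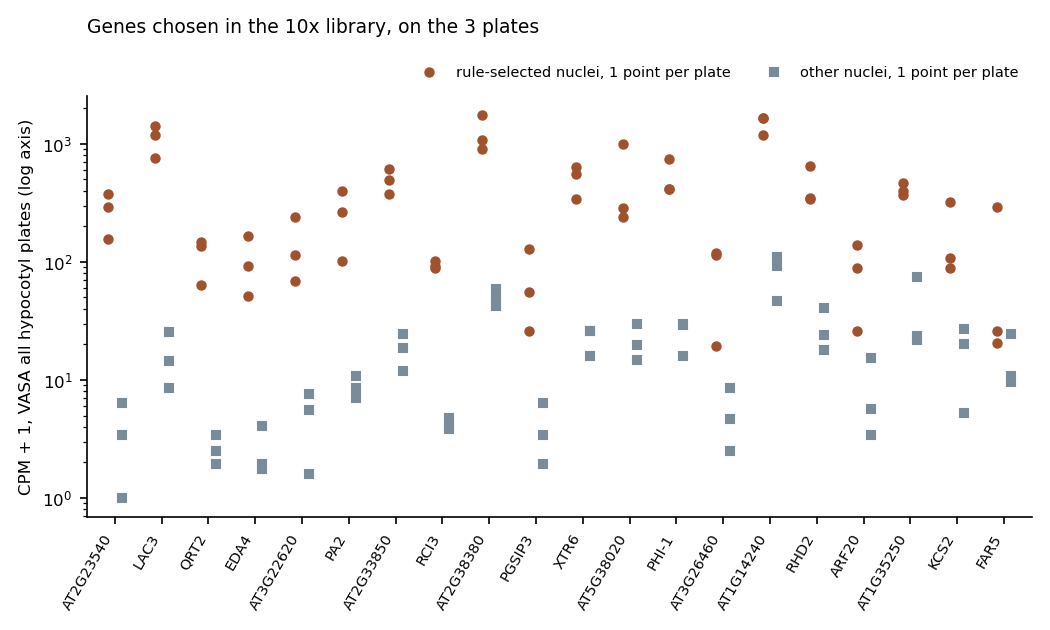
Level of the 20 testable genes chosen in the 10x library, in CPM + 1 on a log axis, on the 3 VASA all hypocotyl plates. Brown circles are rule-selected nuclei and grey squares the other nuclei, with 1 point per plate, and genes run from the largest log2 change (AT2G23540, 6.55) to the smallest (FAR5, 2.75). In every gene but FAR5 each brown point lies above every grey one.

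The 10 largest increases among all called genes brought in 6 further genes. These were the laccase LAC5 (log2 change 6.91), the alpha/beta-hydrolase AT4G24140 (6.74), the GDSL-type lipase AT5G37690 (6.10), AT5G44550, a protein of the CASP-like membrane family (6.10), the acyl-CoA synthetase LACS2 (5.88) and the protein kinase AT5G65530 (5.85), beside AT2G23540, LAC3, QRT2 (5.99) and EDA4 (5.89). Their highest edgeR FDR over the alternatives that could test them lay between 6.9e-08 (LAC3) and 0.00027 (AT5G65530), so all 10 kept their call there. LAC5 had 48.7, 174 and 125 CPM in rule-selected nuclei, against 0, 1.52 and 0.935 CPM in other nuclei (edgeR FDR 5.75e-16). AT5G37690 had 263, 457 and 113 CPM, against 4.87, 4.56 and 1.87 CPM (edgeR FDR 1.18e-36).

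Among enzymes that make suberin monomers, 6 of 11 tested genes of a list of 13 rose on the plates, and all 11 had a positive log2 change (median 1.87, against -0.23 for all genes). Elongation was represented by 3 of them. KCS2, which extends acyl chains for suberin, had 107, 320 and 87.8 CPM in rule-selected nuclei, against 4.26, 19.0 and 26.2 CPM in other nuclei (log2 change 3.46 ± 0.44, edgeR FDR 1.15e-12). KCS1 had 175, 256 and 188 CPM against 23.1, 25.1 and 24.3 CPM (log2 change 3.06 ± 0.38, edgeR FDR 2.59e-13), and KCS20 185, 128 and 50.1 CPM against 35.3, 25.1 and 39.3 CPM (log2 change 1.87 ± 0.42, edgeR FDR 0.000385, and 0.152 without replicate 1). LACS2, which activates fatty acids as CoA esters, had 156, 411 and 100.3 CPM, against 3.04, 4.56 and 2.81 CPM (log2 change 5.88 ± 0.50, edgeR FDR 4.4e-29). FACT, which esterifies caffeic acid to fatty alcohols, had 68.2, 210 and 25.1 CPM against 35.3, 18.2 and 71.1 CPM (log2 change 1.44 ± 0.44, edgeR FDR 0.0237). Its plates overlapped, and the call was lost without replicate 1 (edgeR FDR 0.0707) or replicate 2 (0.999) and over all 6 plates (0.138). The fatty acyl reductase FAR4 (log2 change 1.54 ± 0.57, edgeR FDR 0.0943) and the ketoacyl reductase KCR1 (0.84 ± 0.53, edgeR FDR 0.506) did not pass the test. Summed over the list, rule-selected nuclei had 994, 2002 and 677 CPM, against 206, 222 and 306 CPM in other nuclei, and in the 10x library 8 of 11 genes were at least 4-fold higher. These values pool rule-selected nuclei with and without a count of the suberin enzymes in the rule. KCS2 and LACS2 were high mainly in those with one, given below.

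Genes of suberin export and polymerisation rose in 5 of 7 tested members of a list of 14, with a median log2 change of 3.49. Besides the lipases AT2G23540 and AT5G37690 and the lipid-transfer protein EDA4, these were ABCG1 (195, 54.8 and 100.3 CPM, against 11.6, 16 and 2.81 CPM, log2 change 3.49 ± 0.54, edgeR FDR 1.07e-08) and ABCG2 (48.7, 119 and 50.1 CPM, against 3.04, 10.7 and 6.55 CPM, log2 change 3.42 ± 0.67, edgeR FDR 2.11e-05), transporters needed for normal suberin in roots. Rule-selected nuclei exceeded the others on each plate for both. ESB1, a dirigent protein of the Casparian strip, had 26 counts in rule-selected nuclei, all on the plate of replicate 2, and was not called. In the 10x library 7 of 10 genes of the list were at least 4-fold higher, in d14 6 of 8, and in WT 6 of 7. AT2G23540, AT5G37690 and EDA4 were also high mainly in rule-selected nuclei with a count of the suberin enzymes in the rule, given below.

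Peroxidases and laccases of the wall rose in 7 of 8 tested members of a list of 14, with a median log2 change of 4.61. AT4G36430 had 390, 475 and 752 CPM in rule-selected nuclei, against 22.5, 16 and 32.7 CPM in other nuclei (log2 change 4.46 ± 0.32, edgeR FDR 1.27e-40). AT3G21770 had 370, 210 and 539 CPM against 25.6, 42.6 and 28.1 CPM (log2 change 3.46 ± 0.33, edgeR FDR 1.48e-22), and RCI3 87.7, 91.4 and 100.3 CPM against 3.04, 3.80 and 2.81 CPM (log2 change 4.75 ± 0.68, edgeR FDR 3.99e-10). Of the rest, AT5G66390 (log2 change 3.0) and PER64 (5.31) turned to the other sign when 4 counts of the rule genes were required. PER64 had 0, 311 and 0 CPM in rule-selected nuclei, against 1.22, 4.56 and 0 CPM in other nuclei. All 34 counts in rule-selected nuclei came from 1 nucleus on the plate of replicate 2, and DESeq2 did not call it (adjusted p 0.92).

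Genes of the general phenylpropanoid and monolignol pathway, which supplies ferulate to suberin and monolignols to lignin, rose in part. 7 of 15 tested genes of a list of 17 rose, and the median log2 change was 1.09. PAL2, the entry enzyme together with PAL1, had 292, 631 and 338 CPM in rule-selected nuclei, against 81.0, 73.8 and 64.5 CPM in other nuclei (log2 change 2.45 ± 0.30, edgeR FDR 9.82e-14), and PAL1 changed by 1.81 ± 0.29 (edgeR FDR 8.08e-08). The others were the ligases 4CL1 (1.75) and 4CL2 (1.41), the hydroxylases C4H (0.95) and CYP98A3 (1.31), and the methyltransferase OMT1 (1.09). 4 calls were lost without replicate 1, where the edgeR FDR was 0.356 for 4CL2, 0.623 for C4H, 0.915 for OMT1 and 0.963 for CYP98A3, and 4CL2 (0.187) and C4H (0.1) were lost without replicate 2 too. Over all 6 plates the calls of 4CL2 (0.192) and CYP98A3 (0.054) were lost. Summed over the list, rule-selected nuclei had 3401, 2870 and 2244 CPM, against 1133, 1225 and 1235 CPM in other nuclei.

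**Figure D2:**
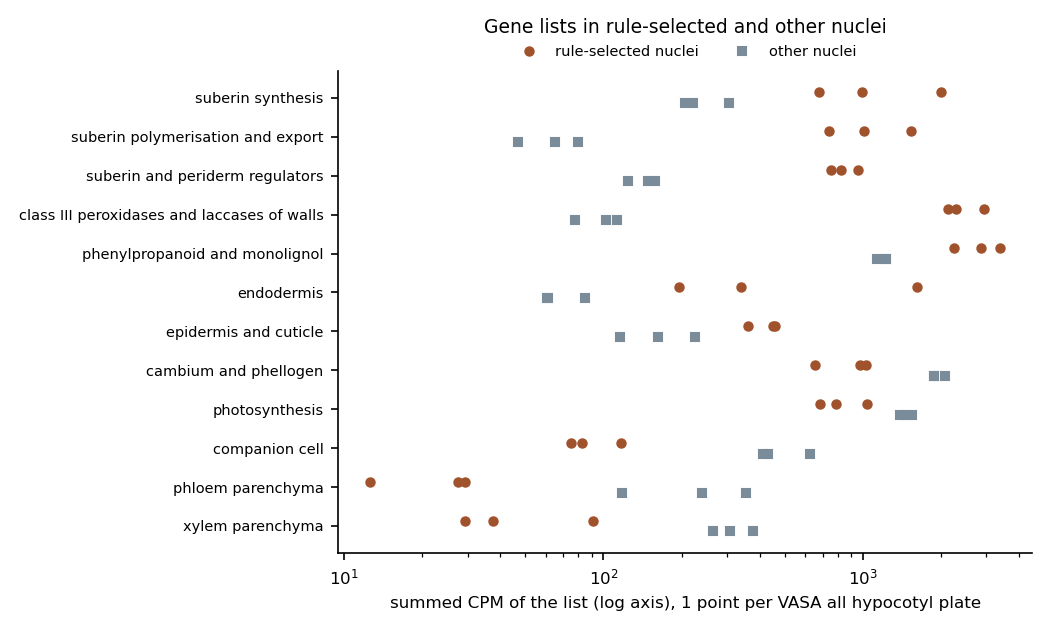
Summed level of each gene list in CPM on a log axis, with 1 point per VASA all hypocotyl plate for rule-selected nuclei (brown circles) and other nuclei (grey squares). From suberin synthesis down to epidermis and cuticle the brown points lie to the right, and from cambium and phellogen down to xylem parenchyma to the left. The far right endodermis point of 1618 CPM is the plate of replicate 2.

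Of 19 transcription factors listed for suberin and periderm, 7 could be tested on the plates and 3 rose, with a median log2 change of 1.503 over the 7. MYB92, an activator of suberin genes, had 78.0, 192 and 37.6 CPM in rule-selected nuclei, against 2.44, 5.32 and 8.42 CPM in other nuclei (log2 change 4.23 ± 0.62, edgeR FDR 1.4e-09). MYB68 had 117, 219 and 201 CPM against 6.70, 15.2 and 19.6 CPM (log2 change 3.71 ± 0.43, edgeR FDR 3.16e-15). MYB4, a repressor of phenylpropanoid genes, had 390, 192 and 163 CPM against 47.5, 47.9 and 74.8 CPM (log2 change 2.11 ± 0.34, edgeR FDR 5.13e-08). The groups did not overlap for any of the 3. In the 10x library 9 of 13 regulators were at least 4-fold higher. MYB84, a close relative of MYB68, had 58 counts in 38 members (159 CPM, against 4.71 CPM in other nuclei), and MYB36 118 CPM against 0.471 CPM. MYB107 and MYB9, known as activators of suberin genes in seeds and roots, had 165 CPM against 5.66 CPM and 65.8 CPM against 1.65 CPM, but had too few counts on the plates for a test.

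Many phenylpropanoid promoters carry AC elements, short motifs bound by MYB factors. The element ACCTACC was searched on both strands, with its variant ACCAACC and a further variant, ACCTAAC, in the 250 bases before each gene start of the TAIR10.1 annotation. A match was found in 1679 of 27443 promoters of protein-coding genes (6.12%). It was found in 7 of the 17 phenylpropanoid genes (41.2%), in 1 of the 13 suberin synthesis genes (7.69%), in 1 of the 14 export and polymerisation genes (7.14%), in 1 of the 9 rule genes and in 4 of the 25 genes of largest ratio. Of the phenylpropanoid genes that rose on the plates, 4CL2 and CYP98A3 had a match, whereas PAL1, PAL2, C4H, 4CL1 and OMT1 had none. 4 promoters are shown because they differ in these matches while their genes were higher in rule-selected nuclei: RWP1 (rule gene, feruloyl transferase, chr5:16431054-16431303, + strand, matches at -244 and -224 from the gene start), ABCG2 (exporter, chr2:15675921-15676170, - strand, match at -155), 4CL2 (phenylpropanoid ligase, chr3:7457405-7457654, - strand, matches at -140 and -31) and KCS2 (elongase, chr1:1122787-1123036, - strand, no match). They are written 5′ to 3′ on the strand of the gene from the RefSeq annotation of TAIR10.1, with AC elements in capitals.
RWP1: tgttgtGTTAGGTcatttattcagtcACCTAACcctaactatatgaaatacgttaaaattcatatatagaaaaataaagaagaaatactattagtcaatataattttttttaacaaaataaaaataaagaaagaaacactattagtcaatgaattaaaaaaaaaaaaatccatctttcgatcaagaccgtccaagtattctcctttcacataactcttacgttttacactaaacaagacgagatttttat
ABCG2: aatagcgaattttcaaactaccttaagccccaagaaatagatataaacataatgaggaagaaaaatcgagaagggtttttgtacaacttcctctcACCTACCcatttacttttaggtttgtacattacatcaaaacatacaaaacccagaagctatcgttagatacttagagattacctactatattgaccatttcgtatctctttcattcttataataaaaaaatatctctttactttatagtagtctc
4CL2: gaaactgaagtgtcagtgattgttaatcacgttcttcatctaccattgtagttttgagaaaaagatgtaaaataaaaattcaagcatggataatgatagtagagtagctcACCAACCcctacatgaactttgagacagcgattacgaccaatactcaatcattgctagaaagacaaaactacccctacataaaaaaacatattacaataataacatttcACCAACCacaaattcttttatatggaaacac
KCS2: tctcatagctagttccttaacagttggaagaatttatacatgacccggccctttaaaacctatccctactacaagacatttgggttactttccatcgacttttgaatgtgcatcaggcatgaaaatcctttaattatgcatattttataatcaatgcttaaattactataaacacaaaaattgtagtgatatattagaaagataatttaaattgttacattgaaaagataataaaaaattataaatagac
A match is a description of the sequence and not a binding site, and these are nuclear RNA data that do not measure binding.

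Of 28 genes of cutin and the epidermis, 10 could be tested and 1 rose, against 3.03% of all genes tested, and 7 had a positive log2 change (median 0.72). Summed over the list, rule-selected nuclei had 361, 457 and 451 CPM, against 163, 226 and 116 CPM in other nuclei. The gene that rose was GPAT6, an acyltransferase known from cutin synthesis, with 58.5, 238 and 201 CPM in rule-selected nuclei against 4.26, 6.84 and 5.61 CPM in other nuclei (log2 change 4.72 ± 0.53, edgeR FDR 7.65e-17). Rule-selected nuclei were also set against the 7, 7 and 3 nuclei per plate with epidermis markers. In that comparison 270 of 3159 genes tested (8.55%) were higher and 171 (5.41%) lower in rule-selected nuclei. Higher were 15 of 15 testable genes of largest ratio, 3 of 6 suberin synthesis genes, 5 of 5 peroxidases and laccases and 2 of 4 export and polymerisation genes, whereas the transporter ABCG11 of that list was lower. Of 5 epidermis and cuticle genes GPAT6 was higher and 4 were lower (CER3, KCS6, ABCG12 and KCS10), all 4 among the markers that chose the epidermis nuclei. KCS2 (log2 change 6.84, edgeR FDR 0.0023) and LACS2 (4.04, edgeR FDR 0.0072) passed, while KCS1 (1.15, edgeR FDR 0.38) and KCS20 (-0.12, edgeR FDR 0.95) did not.

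Endodermis genes rose in 4 of 7 tested members of the list. AT1G61590 had 127, 320 and 176 CPM in rule-selected nuclei, against 3.04, 3.04 and 7.48 CPM in other nuclei (log2 change 5.46 ± 0.49, edgeR FDR 2.51e-26), and GSO1 29.2, 119 and 12.5 CPM against 1.83, 10.7 and 2.81 CPM (log2 change 3.37 ± 0.81, edgeR FDR 0.0011). The other 2 were PER64, given above, and CASP1, whose 29 counts all came from 1 nucleus on the plate of replicate 2 and which had no count in the members of the 10x library. CASP1 had the opposite sign with a minimum of 4 counts. Summed over the list, rule-selected nuclei had 195, 1618 and 338 CPM, against 60.9, 85.2 and 60.8 CPM in other nuclei.

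The study's own markers of its periderm cluster, chosen on these samples and therefore not independent evidence, were also examined outside the rule genes. Of 16 such genes 15 could be tested on the plates, and all 15 rose, with a median log2 change of 3.57. They include genes that were also counted in other nuclei. NSP1, a nitrile specifier protein that directs glucosinolate breakdown, had 1150, 795 and 752 CPM in rule-selected nuclei, against 173, 138 and 129 CPM in other nuclei (log2 change 2.58 ± 0.26, edgeR FDR 1.72e-20). The sesquiterpene synthase gene TPS12 had 1432, 1919 and 1141 CPM, against 296, 427 and 271 CPM (log2 change 2.15 ± 0.24, edgeR FDR 1.25e-16), and AT5G38030, a MATE family transporter, 1052, 804 and 639 CPM against 74.9, 85.2 and 63.6 CPM (log2 change 3.45 ± 0.28, edgeR FDR 2.32e-32). In the 10x library NSP1 was seen in 143 and TPS12 in 142 of the 168 members. The study's markers of phellem, also chosen on these samples, were examined too. Of 20 such genes 12 could be tested and 2 rose, FACT, given above, and AT3G58550 (156, 155 and 12.5 CPM, against 12.8, 14.4 and 20.6 CPM, log2 change 2.75 ± 0.50, edgeR FDR 3.11e-06, and 0.0994 with a minimum of 4 counts). Of the 12, 11 had a positive log2 change (median 1.27), and over all 6 plates 1 was called. Summed over this list, rule-selected nuclei had 799, 1097 and 138 CPM, against 169, 264 and 364 CPM in other nuclei, so the plate of replicate 3 ran the other way. In the 10x library 12 of 16 of these genes were at least 4-fold higher.

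Lower in rule-selected nuclei were genes of the vascular tissues. In the list of cambium and phellogen regulators 5 of 12 tested genes fell. HB-8, a class III HD-ZIP factor, had 39.0, 36.6 and 50.1 CPM in rule-selected nuclei, against 393, 454 and 398 CPM in other nuclei (log2 change -3.34 ± 0.39, edgeR FDR 2.72e-15). PXY, the TDIF receptor, had 58.5, 54.8 and 75.2 CPM against 283, 316 and 214 CPM (log2 change -2.14 ± 0.38, edgeR FDR 1.08e-06), and SMXL5 (AT5G57130) 9.74, 27.4 and 0 CPM against 99.2, 95.8 and 95.4 CPM (log2 change -2.84 ± 0.62, edgeR FDR 0.000187). The calls of ARF19 (-1.24 ± 0.37, edgeR FDR 0.0186) and LBD4 (-1.11 ± 0.36, edgeR FDR 0.0366) were lost without replicate 1 (edgeR FDR 0.436 and 0.659) and without replicate 3 (0.157 and 0.715). WOX4 did not pass the test (58.5, 100.5 and 87.8 CPM, against 73.1, 120 and 110 CPM, log2 change -0.32 ± 0.40, edgeR FDR 0.844).

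Phloem and xylem markers fell further. Among companion cell genes 5 of 8 tested fell, including the sucrose carrier SUC2 (9.74, 0 and 12.5 CPM, against 68.2, 108 and 58.9 CPM, log2 change -3.49 ± 0.76, edgeR FDR 0.000193, and 0.113 without replicate 2), the proton pump HA3 (-3.93, edgeR FDR 3.07e-06) and PP2-A1 (-4.46, edgeR FDR 3.11e-05). The other 2 were APL and NAKR1, whose calls were also lost without replicate 2 (edgeR FDR 0.309 and 0.371), that of NAKR1 without replicate 1 too (0.0922). HA3 and PP2-A1 kept theirs with each plate left out. Among phloem parenchyma genes 3 of 4 tested fell, all of the aliphatic glucosinolate pathway (MAM1, BCAT4 and CYP83A1), of which BCAT4 and CYP83A1 were lost without replicate 1 (edgeR FDR 0.232 and 0.16) and BCAT4 also without replicate 2 (0.105). Among xylem parenchyma genes all 4 tested fell, among them the phosphate exporter PHO1 (0, 18.3 and 25.1 CPM, against 43.2, 90.5 and 44.9 CPM, edgeR FDR 0.0355, and up to 0.456 with 1 plate left out) and the nitrate transporter NRT1.5 (9.74, 0 and 0 CPM, against 54.8, 52.5 and 95.4 CPM, edgeR FDR 0.00021). The median log2 change was -3.71 for companion cell, -3.51 for phloem parenchyma and -3.31 for xylem parenchyma genes, and -2.28 for both the companion cell and the xylem parenchyma lists when genes without counts in rule-selected nuclei were set to their bound. For 3 tested vessel genes the median was 0.12. For photosynthesis 2 of 8 fell (LHCB2.1, -1.19, and LHCA1, -1.44), both lost without replicate 1 (edgeR FDR 0.424 and 0.336), and LHCA1 also without replicate 3 (0.0545).

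Of the 387 lower genes, 55 had no count in the 41 rule-selected nuclei, which together held 291789 counts. For these, 3 counts over the 3 plates, the limit that a count of 0 allows, correspond to 10.3 CPM, and the fold is a bound. The 10 largest decreases were all of this kind. SIAR1, an amino acid transporter, was at least 8.50-fold lower (no count in rule-selected nuclei, against 104, 87.5 and 61.7 CPM in other nuclei), GA3OX1, a gibberellin synthesis enzyme, at least 8.33-fold, AT1G30700 at least 6.69-fold, AT4G00780 at least 6.35-fold, TMO6, a DOF factor of the vascular tissue, at least 6.04-fold, and ASN1, an asparagine synthetase, at least 5.94-fold. AT1G19530 was at least 5.34-fold lower, RLP38 at least 5.14-fold, MGL at least 5.10-fold and THAS1 at least 4.66-fold, and the calls of MGL and THAS1 were lost without replicate 1 (edgeR FDR 0.066 and 0.0774). With every nucleus thinned to 1200 counts, all of these genes but THAS1 lost their calls (edgeR FDR 0.118 for GA3OX1 to 0.495 for MGL). ASN1 also lost its call without a block for the plate (edgeR FDR 0.0831). Over all 6 VASA plates the log2 change of SIAR1 was -1.04 (edgeR FDR 0.0902) and that of THAS1 0.0116. In the 10x library these 10 genes had between 1 and 14 counts in members (2.74 to 38.4 CPM), against 162 to 903 counts in other nuclei (38.2 to 213 CPM).

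Rule-selected nuclei were not uniform. Nuclei with at least 1 count of CYP86A1, CYP86B1, GPAT5 or RWP1, called acyl-positive below, were 22 of the 168 members (13.1%, 8.39 to 19.2%). On the all hypocotyl plates they were 6 of 15, 4 of 16 and 3 of 10 rule-selected nuclei, in d14 17 of 42 (40.5%) and in WT 25 of 73 (34.2%). These 4 genes alone can satisfy the rule, and the split was made after its values were seen, so levels of the rule genes follow in part from the selection and no test is given. Among genes outside the rule, KCS2 had 4220 CPM in the acyl-positive members of the 10x library and 41.0 CPM in the rest, FAR5 4347 and 161 CPM, AT5G37690 4495 and 3.15 CPM, AT2G23540 1941 and 12.6 CPM, EDA4 1794 and 15.8 CPM, and LACS2 739 and 0 CPM. The same contrast was present in WT, with 1906 and 28.1 CPM for KCS2 and 8123 and 75 CPM for AT5G37690, and in d14, with 1031 and 15.8 CPM and 5435 and 15.8 CPM. On the plates KCS2 had 613 and 14.3 CPM, and AT5G37690 1054 and 0 CPM.

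Several regulators were split in the same way. MYB9 (506 and 0 CPM), NAC058 (232 and 0 CPM), MYB107 (1034 and 34.7 CPM) and MYB67 (549 and 25.2 CPM) had most of their level in the acyl-positive members of the 10x library, whereas MYB36 (127 and 117 CPM) and MYB84 (253 and 145 CPM) did not. All counts of MYB9 and NAC058 in members were in acyl-positive nuclei in the 10x and WT libraries. Other genes ran the opposite way. AT1G14240 had 506 CPM in acyl-positive members and 1785 CPM in the rest, and AT5G38020, a methyltransferase, 971 and 2677 CPM. In d14 they had 43.0 and 254 CPM, and 43.0 and 1109 CPM, and in WT 234 and 1097 CPM, and 141 and 929 CPM. XTR6 had 823 and 933 CPM in the 10x library, 881 and 665 CPM in d14 and 999.8 and 919 CPM in WT, but 331 and 566 CPM on the plates.

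**Figure D3:**
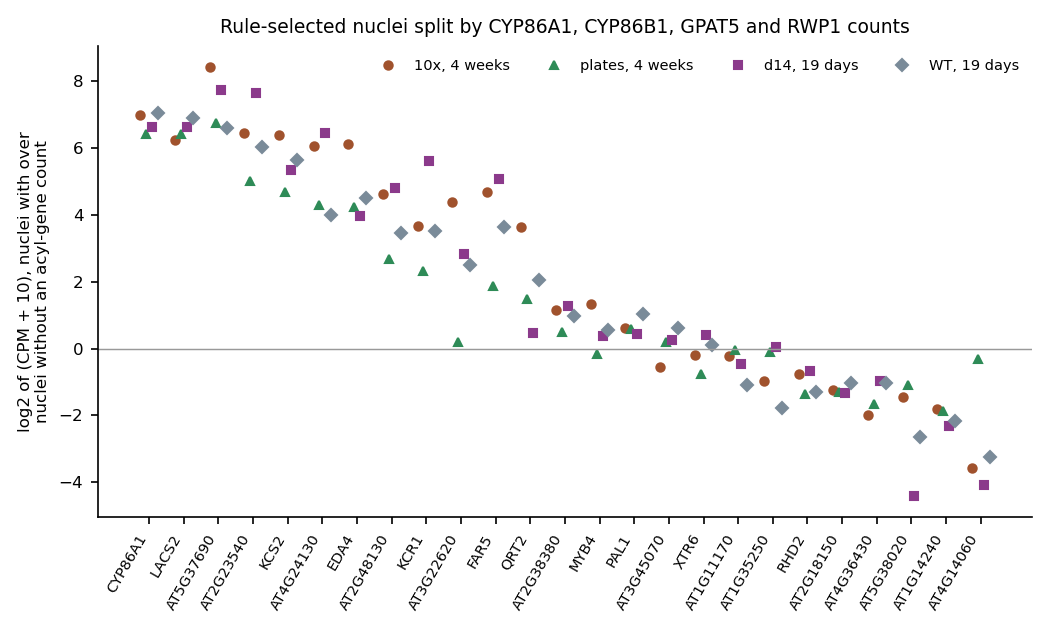
Log2 ratio of the level (CPM + 10) in rule-selected nuclei with a count of CYP86A1, CYP86B1, GPAT5 or RWP1 over rule-selected nuclei without one, for 25 genes picked after their values were seen. Points are the 10x all hypocotyl library, the 3 VASA all hypocotyl plates pooled, d14 and WT. Genes of acyl metabolism lie above 0 in each of them at the left, and AT5G38020, AT1G14240 and AT4G14060 lie below 0 at the right. CYP86A1, AT2G48130, AT3G45070, AT1G11170, AT2G18150 and AT4G14060 are rule genes, and CYP86A1 also made the split.

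The gates were compared for the part of their passing nuclei that met the rule. This does not give how many rule-selected nuclei carry reporter signal of the cambium region. Rule-selected nuclei were 7 of 313, 11 of 277 and 6 of 292 on the VASA cambium plates (2.75% ± 1.06, SD, n = 3) and 15 of 293, 16 of 232 and 10 of 181 on the all hypocotyl plates (5.85% ± 0.931, n = 3). Each cambium plate had a lower share than each all hypocotyl plate. The difference was -3.09 percentage points (two-sided exact permutation p = 0.10, the smallest that 3 against 3 plates allow). With every nucleus thinned to 1200 counts it was -1.93 points (0.333% against 2.26%), and without all hypocotyl replicate 2 the exact permutation p was 0.20.

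**Figure D4:**
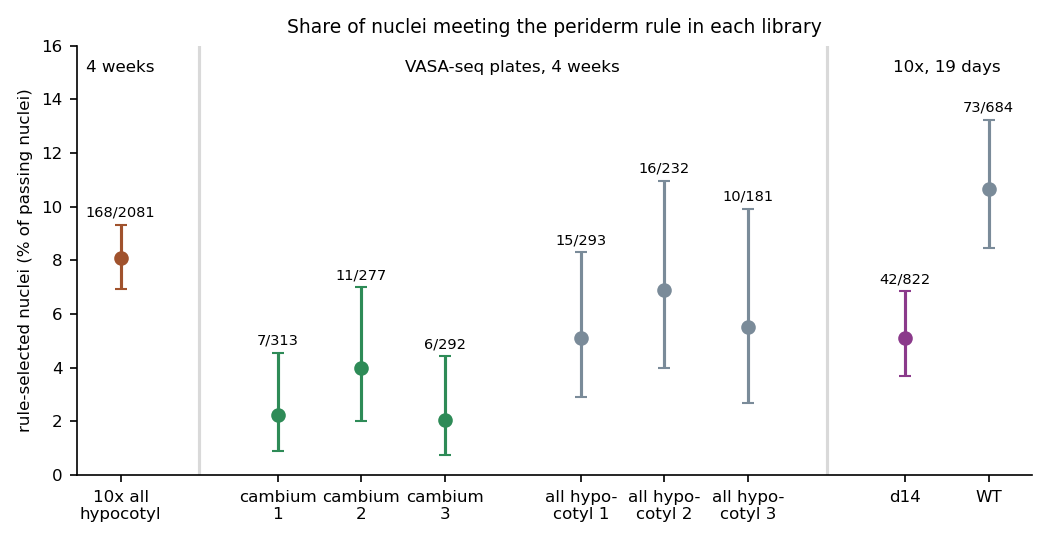
Share of passing nuclei that met the rule in each library, in percent, with 95% Clopper-Pearson intervals for counting error and the number of nuclei above each point. The cambium plates lie between 2.05 and 3.97%, all below the all hypocotyl plates (5.12 to 6.90%), and d14 (5.11%) lies below WT (10.7%), with no replicate library for either.

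Over all nuclei of a plate, part of the genes that were high in rule-selected nuclei were lower behind the cambium gate. 281 of 16127 genes tested fell (1.74%) and 220 rose (1.36%). Of the 25 genes of largest ratio 8 of 16 tested fell, of suberin synthesis genes 6 of 11, of export and polymerisation genes 3 of 6, with median log2 changes of -1.59, -1.67 and -1.37 over the tested genes of each (-0.004 for all genes). With 1 plate left out the number of genes that fell over all was between 137 and 217. In the export list AT2G23540 (edgeR FDR up to 0.0545), AT5G37690 (0.0604) and ABCG11 (0.203) each lost their call in some of these fits. Among suberin synthesis genes LACS2 (edgeR FDR up to 0.0668), KCS1 (0.109), KCS20 (0.066) and FACT (0.0517) did too. Of the genes of largest ratio AT2G38380 (0.0534) also lost its call. KCS2 had 3.42, 1.17 and 3.84 CPM on the cambium plates, against 10.3, 42.1 and 30.5 CPM on the all hypocotyl plates (log2 change -3.23 ± 0.58, edgeR FDR 0.0156, 0.0604 without all hypocotyl replicate 2 and 0.0543 without cambium replicate 2). RWP1 had 0.683, 1.75 and 1.1 CPM against 8.60, 19.7 and 11.3 CPM (log2 change -3.35 ± 0.53, edgeR FDR 0.0102), and LAC3 15.7, 9.32 and 15.9 CPM against 83.1, 65.3 and 122 CPM (log2 change -2.71 ± 0.29, edgeR FDR 0.00187). The plates did not overlap for any of these. The peroxidase AT2G18150, the rule gene seen in most members, fell by 0.90 on the log2 scale (58.1, 43.7 and 37.9 CPM, against 95.1, 75.1 and 89.7 CPM, edgeR FDR 0.024, and up to 0.0991 with 1 plate left out). Of peroxidases and laccases 1 of 5 tested genes fell, of suberin and periderm regulators 1 of 7 and of endodermis genes 0 of 3. Of the 15 tested phenylpropanoid genes 0 fell, and their median log2 change was 0.36. In such sums, fewer nuclei of a type and less RNA per nucleus cannot be told apart.

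In the 19-day libraries 42 of 822 d14 nuclei (5.11%, 3.71 to 6.84%) and 73 of 684 WT nuclei (10.7%, 8.46 to 13.2%) met the rule, a ratio of 0.479. It was 0.431 with a minimum of 2 counts, 0.435 with 4, 0.422 after thinning to 1500 counts, and 0.567 among nuclei with at least 2500 counts (14 of 256 against 19 of 197). Each genotype has 1 library, so genotype and library cannot be told apart, and no test between genotypes was possible. Within rule-selected nuclei single genes ran in both directions. AT2G38380 had 2134 CPM in d14 and 2268 CPM in WT (ratio 0.941, counting interval 0.796 to 1.11), whereas AT1G14240 had 164 CPM in d14 and 774 CPM in WT (0.212, 0.122 to 0.348). LAC3 (310 CPM in d14, 621 CPM in WT), EDA4 (292 and 592 CPM) and KCS2 (447 and 733 CPM) had ratios of 0.499, 0.493 and 0.610. FACT (492 CPM in d14, 299 CPM in WT), FAR4 (356 and 152 CPM) and AT1G35250 (994 and 568 CPM) were higher in d14, with ratios of 1.65, 2.33 and 1.75 and intervals above 1. The intervals cover counting error only. The acyl-positive share of these nuclei was 40.5% in d14 (25.6 to 56.7%) and 34.2% in WT (23.5 to 46.3%), with overlapping intervals. Its part in these ratios was not tested.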

How the data were processed

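Nuclei were isolated from pooled hypocotyls and sequenced by droplet (10x) or plate (VASA-seq) methods. The authors deposited raw counts of molecules per gene and barcode. Per the paper's methods and the labels, reads of the 4-week libraries were aligned with STAR 2.7.8a, introns included, to TAIR10 with transgene sequences added, and WT and d14 were counted with Cell Ranger 6.0.1, introns included. Nuclear totals lack organelle genes only in WT and d14. Here, barcodes with more than 1200 and fewer than 10000 counts were kept in the 10x all hypocotyl library, more than 1200 and fewer than 15000 on the plates, and more than 1500 and fewer than 15000 in WT and d14. A mitochondrial limit of 20% removed none. Scrublet in scanpy 1.11.5 called 1 doublet in the 10x library, so calls were not used, and removal of the top 5% by score was tried instead. Nuclei hold few counts each, which limits precision, and intervals and floors (3 counts) cover counting error only.

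Counts were summed per plate over rule-selected and other nuclei and tested with edgeR 4.0.16 (quasi-likelihood, TMM, genes with at least 30 counts, plate as a block, Benjamini-Hochberg FDR under 0.05) in R 4.3.3, with DESeq2 1.42.0 as an alternative. The gates were compared with the same test without a block. The SE given with a log2 change is approximate. It was derived from the test, as the absolute change divided by the square root of its F statistic. Clusters were made with Seurat 5.3.0 (15 dimensions, resolution 1.2). Shares on plates were compared by exact permutation, two-sided. The other alternatives were RLE factors, no low-count filter, the other choice of replicate block, all 6 plates together, a minimum of 2 or 4 rule counts, thinning to 1200 counts (1500 in WT and d14), nuclei with at least 2500 counts and leaving out each plate. Genes named are the 9 rule genes, the 25 of largest (CPM + 10) ratio with at least 30 counts and seen in 10% of members of the 10x library, the 10 largest and 10 smallest log2 changes among called plate genes, and members of the lists where called or central to the list's function. Their annotation was taken from TAIR10.1, whose assembly matches the build the authors name. Members and lists were chosen with earlier results of these data known. The test was tried on simulated data for rule-selected against other nuclei, over 15735 genes with 200 changed. It recovered 88% of genes raised by 3 and 24% of genes lowered by 3 on the log2 scale. Of genes changed by 2 either way it recovered 15%, and there were 0 false calls. The simulated counts had 1 common dispersion, no plate effect and no counts gathered in single nuclei. They therefore cannot give the rate of false calls in these data, where PER64 and CASP1 were called from 1 nucleus each.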

Additional observations from a re-analysis of the deposited data

Results flagged for a closer look

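For 6 named genes, the change in rule-selected over other nuclei differed between the VASA cambium and the VASA all hypocotyl plates. The test was the interaction of nucleus class and gate over the 6 plates (edgeR), added after the data had been seen, and it called 43 of 18207 genes, 21 with a higher and 22 with a lower change on the cambium plates. XTR6 differed by -3.51 on the log2 scale (edgeR FDR 6.61e-05), PHI-1 by -2.78 (0.00198) and LAC3 by -2.55 (0.00233). In rule-selected nuclei of the cambium plates these genes had 1, 7 and 1 counts (XTR6), 7, 4 and 4 counts (PHI-1) and 6, 3 and 15 counts (LAC3), the 15 from 1 nucleus. SIAR1 differed by 9.62 (4.75e-05), GA3OX1 by 9.51 (0.00372) and THAS1 by 11.2 (1.26e-05). These 3 had no count in rule-selected nuclei of the all hypocotyl plates, so the size of their fitted difference depends on the prior count and is no estimate. Their counts on the cambium plates were 26, 1 and 2 (SIAR1), 9, 0 and 0 (GA3OX1) and 1, 0 and 13 (THAS1), the 13 from 1 nucleus. The cambium plates held 7, 11 and 6 rule-selected nuclei, and the part of single nuclei in these differences was not tested further.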

How the results depend on the processing

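The order of the shares of rule-selected nuclei between gates and genotypes, and the direction of most named genes, held under the settings tried. The shares themselves did not hold with thinning to 1200 counts. The share fell from 8.07% to 6.39% in the 10x library. Its mean fell from 2.75% to 0.333% on the cambium plates and from 5.85% to 2.26% on the all hypocotyl plates. The difference between gates was then -1.93 points. With this thinning 132 genes were called between rule-selected and other nuclei, against 863 without it. DESeq2 called 482 (7017 genes had no adjusted p), and the number with 1 plate left out was 433 to 788. Without a block for the plate 698 were called. For the gates 501 genes were called, 1284 with no filter on low counts and 229 to 353 with 1 plate left out. The difference between gates was -3.70 to -2.57 points with 1 plate left out. Plate numbers did not pair the gates (correlations of same-numbered plates 0.134, -0.0307 and 0.0738). With the number as a replicate block 572 genes were called, and the exact p of the shares was 0.25, the smallest that block allows. With a minimum of 4 counts the sign turned for ESB1 (-1.14), PER64 (-5.90), CASP1 (-5.76) and AT5G66390 (-5.51). ESB1 was also negative by DESeq2 (-1.20) and between -6.49 and 2.49 with 1 plate left out, and THAS1 was 0.0116 over all 6 plates. The cause was not tested. Thinning ended the call of 39 of 59 named results. The 10 to 16 rule-selected nuclei per all hypocotyl plate limit what can be seen of genes with low counts.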

Other observations

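Lists of stress and cell fate genes were also read on the VASA all hypocotyl plates, where 3.03% of all genes tested rose and 2.46% fell. Of 10 tested genes of the abscisic acid response 1 rose, CYP707A3, which inactivates abscisic acid, with 195, 137 and 401 CPM in rule-selected nuclei against 56.6, 80.6 and 62.7 CPM in other nuclei (log2 change 1.75 ± 0.34, edgeR FDR 1.15e-05). Over all 6 plates its change was 0.84 (edgeR FDR 0.0813). Of 13 tested genes of hypoxia and ethylene 2 fell. ADH1, an alcohol dehydrogenase, had 39.0, 9.14 and 12.5 CPM against 63.9, 79.1 and 128 CPM (log2 change -2.08 ± 0.57, edgeR FDR 0.00672, and 0.188 without replicate 2 and 0.248 without replicate 3), and LBD41 had 19.5, 9.14 and 113 CPM against 110, 99.6 and 138 CPM (log2 change -1.56 ± 0.46, edgeR FDR 0.0173, and 0.416 without replicate 1 and 0.446 without replicate 2). The median log2 change was -0.06 for abscisic acid response genes, -0.81 for hypoxia and ethylene genes and -0.81 for the 5 tested cell death genes, against -0.23 for all genes. With genes without counts in rule-selected nuclei set to their bound it was 0.17, -0.62 and -0.40 for these lists in the same order.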
